A study of Mus musculus with 4 samples.

Results

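The 8 genes described here lie beside Tnfrsf4 near the end of mouse chromosome 4: Sdf4, B3galt6, Ube2j2, Acap3, Pusl1, Dvl1, Ccnl2 and Mib2, 8 of the 35275 genes in the deposited table. All lie on the centromere side of Tnfrsf4. In the order of protein-coding genes counted outwards they stand 1, 2, 4, 5, 6, 10, 13 and 22 places from it. They were picked by position, but with the values of this table already known, so their differences between genotypes are given as a description and none is offered as a test. Tnfrsf4 encodes OX40, a costimulatory receptor of activated T cells. The RNA came from double-negative regulatory T cells, which carry an αβ T cell receptor but neither CD4 nor CD8. 2 libraries were of OX40-knockout and 2 of wild-type (wt) genotype, all of strain C57BL/6, and all cells had been converted from naive CD4 T cells and sorted as CD3+TCRαβ+NK-CD4-CD8-. Whether same-genotype libraries came from separate animals is not stated, so spreads and p-values may be technical. They give no age, no deleted exon, no source of the targeted allele and no breeding history.

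A targeted allele can carry a selection cassette, and it travels with the DNA that flanks it. When the embryonic stem cells and the final mouse are of different strains, genes beside the target can keep the sequence of the stem cell strain after many generations of backcrossing. Neighbours of a deleted gene are therefore commonly read by library, both for effects of the cassette on nearby transcription and for such passenger sequence. An RPKM value, which counts reads per kilobase of transcript scaled to the size of the library, shows a level and not an allele, so in these data a cassette effect and passenger sequence cannot be told apart.

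The starts of 2 pairs of these genes face away from each other across a short gap, so each pair could share a promoter region. The gaps were picked with the values known. B3galt6 and Sdf4, beside the first, were lower in both knockout libraries, and Pusl1 and Acap3, beside the second, were not. C1qtnf12 and Tnfrsf4, which do not border the first gap, were lower in both knockout libraries too. Whether either gap bears on these levels was not tested. The sequences are RefSeq's, from build GRCm38.p6, and are the stretches that neither RefSeq nor GENCODE places in a transcript. They are written on the plus strand, 5′ to 3′. Capitals mark a repeated unit, CTGGAAGGCGCCTGCGCGACTCG. It is the longest stretch present at least 5 times in the first sequence, where the repeat was noticed, and it was then searched on both strands.
B3galt6 and Sdf4, chr4:155992679-155992842, plus strand: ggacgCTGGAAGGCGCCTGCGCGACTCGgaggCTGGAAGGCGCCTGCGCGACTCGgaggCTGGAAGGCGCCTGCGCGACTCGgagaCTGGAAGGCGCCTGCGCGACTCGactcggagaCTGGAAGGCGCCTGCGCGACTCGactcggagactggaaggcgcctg
Pusl1 and Acap3, chr4:155891782-155891821, plus strand: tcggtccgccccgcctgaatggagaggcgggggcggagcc
The stretch between B3galt6 and Sdf4 was 164 bases long with a GC content of 71.3%, and it held the unit 5 times. The 40 bases between Pusl1 and Acap3, at 77.5% GC, held it 0 times. All 8 genes had promoter windows in RefSeq's table (300 bases, 250 before and 50 after a start). Of the 32851 windows for all mouse genes, 4 (0.0122%) held the unit at least once. They belong to 2 genes, B3galt6 and Sdf4, and all lie at this one place, where the repeat was noticed. The unit was defined from this gap, so finding it there was fixed in advance, and nothing is read from the share. At its other end Sdf4 nearly meets the targeted gene on the same strand. GENCODE leaves 232 bases between the end of Sdf4 and the start of Tnfrsf4, and in RefSeq the outermost spans of both genes share 16 bases.

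**Figure D1:**
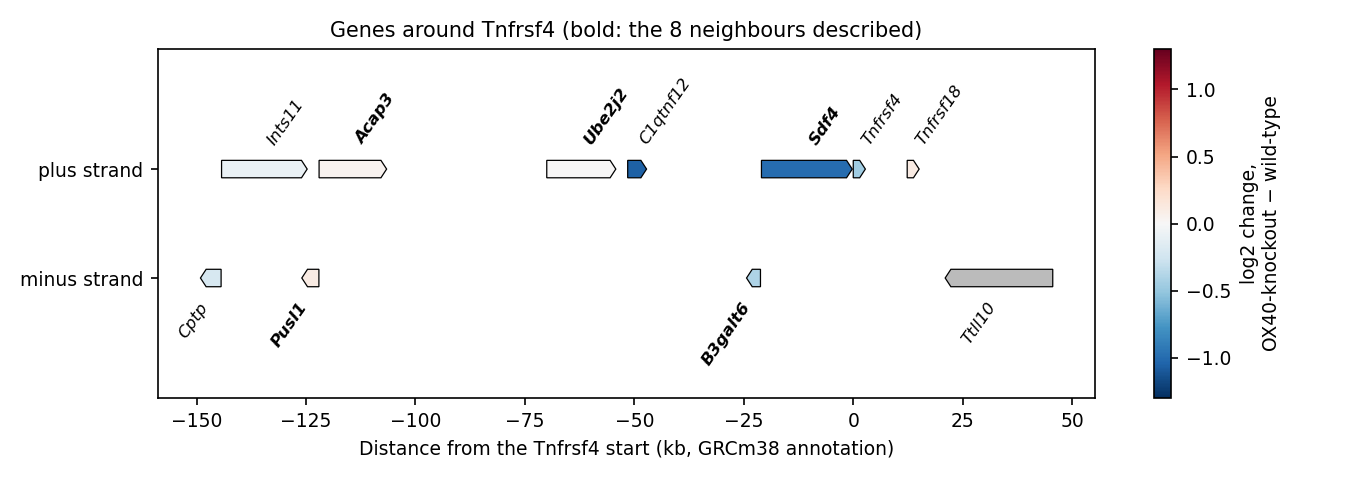
Genes from 8 places before to 2 places after Tnfrsf4, drawn to scale by distance from the Tnfrsf4 start in kb and by strand, and coloured by the log2 change of RPKM + 1 in OX40-knockout against wild-type. Grey marks a gene under the level filter. The run of blue goes from C1qtnf12 (-1.06) through B3galt6 (-0.40) and Sdf4 (-1.01) to Tnfrsf4 (-0.46). Next to it lie Ube2j2 (0.00, SE 0.11) and Tnfrsf18 (0.10, SE 0.35).

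The library totals behind the RPKM values lay between 22220888 and 24395743 reads. The 8 genes held between 175 and 7176 reads in a library. The T cell receptor components Cd3e, Cd3d, Cd3g and Cd247 summed to 1309 and 1052 RPKM in the knockout libraries and to 1387 and 1121 RPKM in the wild-type libraries. Of the markers the sort selected against, Cd4 was at 10.1 and 2.06 RPKM in knockout and 0.82 and 1.97 RPKM in wild-type libraries. Cd8a was higher than Cd4 in every library, at 16.6 and 9.03 RPKM in knockout and 10.5 and 10.4 RPKM in wild-type libraries. Cd8b1 was at 4.44 and 2.00 RPKM in knockout and 3.37 and 2.49 RPKM in wild-type libraries. The NK marker gene Klrb1c was at 42.8 and 159 RPKM in knockout and 98.5 and 160 RPKM in wild-type libraries. Marker sums of B cells and of dendritic cells stayed between 0.609 and 1.41 RPKM in every library, and Epcam was at 10.7 and 18.5 RPKM in knockout and 16.3 and 17.8 RPKM in wild-type libraries. Some markers went with the replicate number and not the genotype. The NK gene Ncr1 was at 0.183 and 7.49 RPKM in knockout and 0.408 and 7.93 RPKM in wild-type libraries. Myeloid markers summed to 2.14 and 5.08 RPKM in knockout and 3.44 and 7.95 RPKM in wild-type libraries, and erythroid markers to 5.07 and 1.69 RPKM in knockout and 3.13 and 1.22 RPKM in wild-type libraries. Their part in the results was not tested. In bulk RNA, fewer cells of a type and less RNA per cell cannot be told apart. OX40-knockout 1 also stood apart by GC content, with tested genes split by GC into 5 equal classes. The median deviation from the 4-library mean of log2(RPKM + 1) was -0.18 in its lowest-GC class and 0.21 in its highest.

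Tnfrsf4 itself was still read in the libraries labelled OX40-knockout, at 12.1 and 9.38 RPKM, against 18.2 and 12.3 RPKM in wild-type libraries. The higher knockout and the lower wild-type value, 12.1 and 12.3 RPKM, nearly met. The log2 change was -0.46 (SE 0.23) and did not pass limma's test over all genes (adjusted p = 0.975). It was -0.20 without wild-type 1, -0.29 without OX40-knockout 2 and -0.72 without wild-type 2. A value over the whole gene says little about a deletion whose extent is not given.

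Sdf4 encodes Cab45, a calcium-binding protein of the Golgi lumen that helps sort secreted proteins. It is the gene immediately before Tnfrsf4. It stood at 99.6 and 63.8 RPKM in the knockout libraries, against 175 and 148 RPKM in the wild-type libraries. Both knockout libraries were below both wild-type libraries, and the 2 groups were separated by far more than counting error. The exact 95% Poisson interval of the higher knockout library reached 103 RPKM (3901 reads), and that of the lower wild-type library began at 144 RPKM (6356 reads). Intervals of this kind cover counting error only. The means were 81.7 ± 25.3 RPKM in knockout and 162 ± 19.5 RPKM in wild-type libraries (SD, n = 2 each). The log2 change was -1.01 (SE 0.24), the 23rd lowest of the 11625 genes that entered the fit, those averaging 1 RPKM or more. Within a replicate number the difference was -0.81 for the libraries numbered 1 and -1.20 for those numbered 2, and with any single library left out the log2 change stayed between -1.32 and -0.69.

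B3galt6 starts on the other side of the repeat shown above and runs the opposite way. Its product, galactosyltransferase II, adds a galactose to the linker by which glycosaminoglycan chains hang from proteoglycans. Its level was low, at 2.80 and 2.44 RPKM in knockout libraries and 3.63 and 3.89 RPKM in wild-type libraries. Again both knockout libraries lay below both wild-type libraries. Counting error is large at this level: the interval of OX40-knockout 1 reached 3.22 RPKM (198 reads) and that of wild-type 1 began at 3.205 RPKM (268 reads), so these just met. The log2 change was -0.40 (SE 0.16), and with a pseudocount of 5 it was -0.20. Per length, Sdf4 was read 35.6 and 26.2 times as much as B3galt6 in the knockout libraries, against 48.4 and 38.0 times in the wild-type libraries.

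Between B3galt6 and the next of the 8 genes lies C1qtnf12, which encodes the secreted protein adipolin. It is not among the 8 and enters by the naming rule for the wider neighbourhood, where it had the lowest log2 change. C1qtnf12 was at 14.1 and 5.29 RPKM in knockout libraries, against 19.7 and 18.9 RPKM in wild-type libraries. Both knockout libraries were lower, and they were also far apart from each other (226 and 86 reads). The log2 change was -1.06 (SE 0.43), -1.69 without OX40-knockout 1 and -0.43 without OX40-knockout 2. From C1qtnf12 to Tnfrsf4, 4 adjacent protein-coding genes were thus lower in both knockout libraries, a run picked out after its values were seen.

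**Figure D2:**
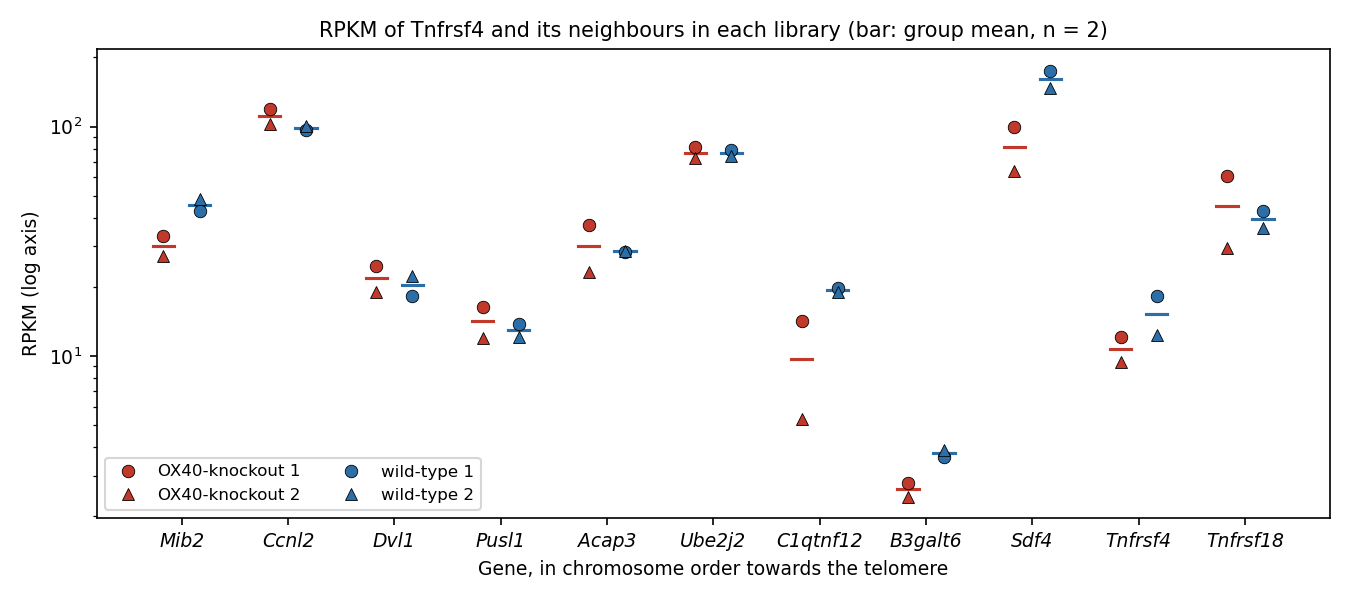
RPKM on a log axis for Tnfrsf4, the 8 neighbours, C1qtnf12 and Tnfrsf18 in chromosome order, with OX40-knockout (red) left of wild-type (blue), circles for libraries numbered 1, triangles for those numbered 2 and bars for group means (n = 2). Sdf4 is at 99.6 and 63.8 RPKM in knockout and 175 and 148 RPKM in wild-type libraries, while the groups overlap for Ube2j2, Acap3, Pusl1 and Dvl1.

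Directly outside this run the values of the groups overlapped. Ube2j2, an endoplasmic reticulum ubiquitin-conjugating enzyme that helps dispose of misfolded proteins, was at 81.0 and 72.7 RPKM in knockout libraries and 78.6 and 74.4 RPKM in wild-type libraries. Its means differed by less than the spread within either group, with a log2 change of 0.00 (SE 0.11). On the telomere side, Tnfrsf18, which encodes the costimulatory receptor GITR, was at 60.6 and 29.5 RPKM in knockout and 42.7 and 36.3 RPKM in wild-type libraries. Here too the wild-type values lay between the knockout values. The log2 change of Tnfrsf18 was 0.10 (SE 0.35), -0.40 without OX40-knockout 1 and 0.61 without OX40-knockout 2. So the run has no sharp edge on this side.

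Acap3 and Pusl1 share the second gap shown above. Acap3, a protein that switches off the small GTPase ARF6, was at 37.2 and 23.3 RPKM in knockout libraries and 28.4 and 28.7 RPKM in wild-type libraries. Pusl1, related in sequence to pseudouridine synthases, was at 16.3 and 12.02 RPKM in knockout libraries and 13.8 and 12.1 RPKM in wild-type libraries. For both genes OX40-knockout 1 was the highest library and OX40-knockout 2 the lowest. For Pusl1 the counting intervals of OX40-knockout 2 (10.4 to 13.8 RPKM) and wild-type 2 (10.6 to 13.9 RPKM) nearly coincided. Acap3 was read 2.28 and 1.94 times as much per length as Pusl1 in the knockout libraries and 2.05 and 2.37 times in the wild-type libraries. The log2 changes were 0.04 (SE 0.24) for Acap3 and 0.11 (SE 0.18) for Pusl1. Pusl1 overlaps Ints11 on the opposite strand over 1225 bases, and the sources used here do not say whether counting used strand, so reads of Ints11 may be included. Ints11, a subunit of the Integrator complex, was at 41.3 and 30.9 RPKM in knockout and 38.1 and 38.0 RPKM in wild-type libraries.

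Dvl1 encodes a Dishevelled protein, which relays Wnt signals from Frizzled receptors. It was at 24.6 and 19.1 RPKM in knockout libraries and 18.2 and 22.3 RPKM in wild-type libraries, so the groups overlapped (log2 change 0.10, SE 0.18). It shares 36 bases with Tas1r3 on the opposite strand, a gene at no more than 0.511 RPKM in any library. Ccnl2 encodes cyclin L2, a cyclin tied to pre-mRNA splicing, and was at 119 and 102 RPKM in knockout libraries and 96.8 and 101 RPKM in wild-type libraries. It was the only gene of the 8 with both knockout libraries above both wild-type libraries. The gap was narrow: the interval of OX40-knockout 2 began at 99.8 RPKM and that of wild-type 2 reached 103 RPKM. The log2 change of Ccnl2 was 0.16 (SE 0.12).

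Mib2, whose start lies 344.6 kb from that of Tnfrsf4 in GRCm38, the farthest of the 8, encodes a ubiquitin ligase that acts on Notch ligands. It was at 33.2 and 27.3 RPKM in knockout libraries, against 42.8 and 48.4 RPKM in wild-type libraries. Both knockout libraries were lower, and the counting intervals were apart, with OX40-knockout 1 reaching 35.1 RPKM (1174 reads) and wild-type 1 beginning at 40.7 RPKM (1582 reads). The log2 change was -0.58 (SE 0.14), the 107th lowest of the tested genes, and it stayed between -0.72 and -0.44 with any single library left out. Its tested neighbours on either side, Fndc10 and Cdk11b, had overlapping groups. Fndc10 was at 2.75 and 1.68 RPKM in knockout and 1.67 and 2.26 RPKM in wild-type libraries, and Cdk11b at 79.3 and 80.9 RPKM in knockout and 79.6 and 83.0 RPKM in wild-type libraries.

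The order of the 8 genes by level per length differed between genotypes at its top. In both knockout libraries Ccnl2 stood above Sdf4, and in both wild-type libraries Sdf4 stood above Ccnl2. The knockout means were 111 RPKM for Ccnl2, 81.7 for Sdf4 and 76.8 for Ube2j2, and Sdf4 and Ube2j2 overlapped there. The wild-type means were 162 RPKM for Sdf4, 98.7 for Ccnl2 and 76.5 for Ube2j2, with no overlap between libraries. Mib2 and Acap3 overlapped in knockout libraries, at means of 30.2 RPKM each, whereas in wild-type libraries they stood apart at 45.6 and 28.6 RPKM. Dvl1, Pusl1 and B3galt6 followed in that order in every library.

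As a group the 8 genes had no direction that held across settings. All 8 passed the level filter, 3 had a negative log2 change, beside 56.6% of all tested genes, and 5 a positive one. The median was 0.02, beside -0.03 over all 11625 tested genes. After the GC correction described below 6 of the 8 were negative (median -0.06), and without OX40-knockout 1 7 of the 8 were (median -0.19). 0 of the 8 passed limma's test at an adjusted p under 0.05, and 0% of all tested genes did. At an unadjusted p under 0.05, 98 genes of the whole table were lower (0.843%) and 64 higher (0.551%), and limma-voom on recovered reads called 0 genes as well. Other settings called 0.043% of tested genes (replicate number as a block) or 0.0086% (the block with a GC correction, quantile normalization, or wild-type 2 left out), none of them among the 8. Both knockout libraries lay below both wild-type libraries for 3 of the 8, beside 17.8% of all tested genes, and above them for 1 of the 8, beside 8.66%. The groups did not overlap in either direction for 4 of the 8, beside 26.4%. An absolute log2 change of at least 0.5 was found in 2 of the 8, Sdf4 and Mib2, beside 3.29% of all tested genes. Since the genes were chosen with these values known, nothing is read from such counts.

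**Figure D3:**
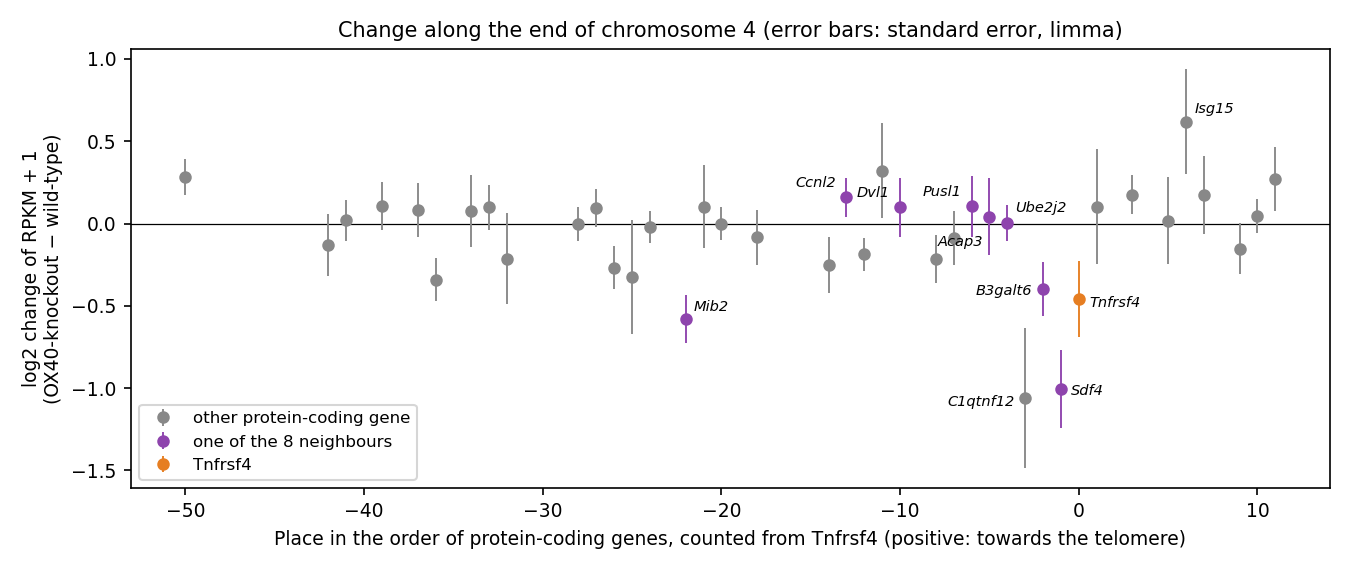
Log2 change of RPKM + 1 (OX40-knockout minus wild-type, with limma standard errors) against the place of each tested protein-coding gene in chromosome order, counted from Tnfrsf4 at 0, for up to 50 places on either side. Sdf4 (-1.01), C1qtnf12 (-1.06) and Mib2 (-0.58) lie lowest and Isg15 (0.62) highest. Tnfrsf4 (-0.46) and B3galt6 (-0.40) are the next lowest, and the remaining genes lie between -0.34 (Rer1) and 0.32 (Mxra8).

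A wider neighbourhood, which includes the 8 genes, was taken by position: the 25 protein-coding genes on the centromere side of Tnfrsf4 and the 12 that GENCODE lists between it and the telomere. Of these 37 genes 36 were in the table and 27 passed the level filter. 12 had a negative and 15 a positive log2 change, with a median of 0.00. Both knockout libraries were lower for 7 of the 27 (25.9%) and higher for 4 (14.8%), beside 17.8% and 8.66% of all tested genes, and 0 passed the limma test. Of the 19 tested genes that are not among the 8, 4 were lower (21.1%) and 3 higher (15.8%) in both knockout libraries, and the median was 0.00. On the centromere side 11 of 19 genes (57.9%) had a negative log2 change (median -0.08), beside 56.6% of all tested genes. That side holds all 8 genes chosen with their values known. On the telomere side 1 of 8 (12.5%) had one (median 0.14), and no difference between the sides was tested. Over the 681 tested genes of chromosome 4 more than 50 places away the median was -0.03, and 2.79% had an absolute log2 change of at least 0.5, beside 4 of the 27 near genes (14.8%), of which Sdf4 and Mib2 are 2. Without the 8 genes it was 2 of 19 (10.5%), C1qtnf12 and Isg15.

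The naming rule for this neighbourhood took C1qtnf12, Sdf4 and Mib2 as the lowest and Isg15, 9430015G10Rik and Ccnl2 as the highest of genes at 5 RPKM or more. Isg15, a ubiquitin-like protein induced by interferon, was at 17.6 and 9.08 RPKM in knockout libraries, against 8.66 and 7.21 RPKM in wild-type libraries. The excess lay mostly in OX40-knockout 1, and the log2 change of 0.62 (SE 0.32) was 0.18 without it. 9430015G10Rik was at 21.5 and 21.6 RPKM in knockout and 17.9 and 20.2 RPKM in wild-type libraries (log2 change 0.18, SE 0.12). The naming rule for the whole table took the 10 genes of lowest p at a mean of 5 RPKM or more. Gm28438, Wdfy1 and Ifi208 lie on chromosome 1, and Tmem181b-ps, Dynlt1b and Tulp4 on chromosome 17. Camk2b lies on chromosome 11, Traj9 on 14, Il22 on 10 and Gm47283 on Y. With 10 genes, nothing is read from these places. Wdfy1, an endosomal adaptor on chromosome 1, had a log2 change of -1.41 (SE 0.11), against -1.01 (SE 0.24) for Sdf4.

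By GC content 4 of the 8 genes, Acap3, Pusl1, Dvl1 and Mib2, are in the highest of the 5 classes. Whether GC content shaped their values was not tested. In OX40-knockout 1 Acap3, Pusl1 and Dvl1 deviated from their 4-library means by 0.35, 0.26 and 0.22, beside 0.21 for the median gene of that class. In OX40-knockout 2 they deviated by -0.31, -0.15 and -0.13, beside -0.10. Mib2, of the same class, deviated by -0.15 in OX40-knockout 1 and by -0.43 in OX40-knockout 2. Ccnl2, in the next-to-lowest class, deviated by 0.19 in OX40-knockout 1, where the median gene of its class deviated by -0.11. With the GC trend of each library removed, the log2 change was -1.001 for Sdf4, -0.38 for B3galt6, -0.72 for Mib2 and 0.24 for Ccnl2. It was 0.00 for Ube2j2, and its sign turned for Acap3 (-0.06), Pusl1 (-0.05) and Dvl1 (-0.04). The same 3 genes as before were lower in both knockout libraries after this correction, beside 12.8% of all tested genes, and Ccnl2 was again higher in both, beside 12.9%.

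**Figure D4:**
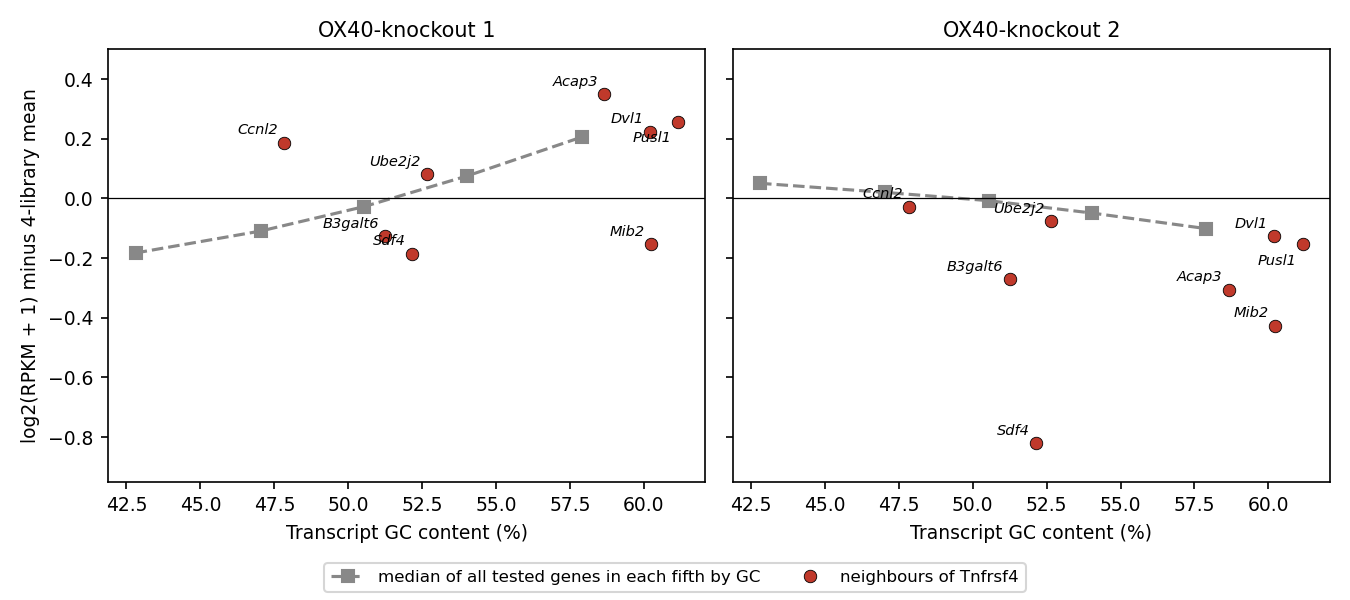
Deviation of each of the 8 neighbours from its 4-library mean of log2(RPKM + 1) against its transcript GC content in percent, in OX40-knockout 1 (left) and OX40-knockout 2 (right), with the median of all tested genes in each of 5 GC classes as grey squares. Acap3, Pusl1 and Dvl1 sit near the upper end of the grey line in OX40-knockout 1, while Mib2, at -0.15, and Sdf4, at -0.18, sit below it.

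The knockout libraries differed from each other more than the wild-type libraries did for each of the 8 genes. On the log2(RPKM + 1) scale OX40-knockout 1 exceeded OX40-knockout 2 for all 8, by 0.15 for B3galt6 up to 0.65 for Acap3 and 0.64 for Sdf4. Wild-type 1 minus wild-type 2 ranged from -0.28 for Dvl1 to 0.25 for Sdf4. Over the 8 genes the median deviation was 0.13 in OX40-knockout 1 and -0.21 in OX40-knockout 2, against 0.04 in each wild-type library. Without OX40-knockout 1 the log2 changes of Ube2j2, Acap3, Pusl1 and Dvl1 were negative, at -0.07, -0.28, -0.10 and -0.08, and without OX40-knockout 2 they were 0.08, 0.37, 0.31 and 0.27. Dvl1 was also negative without wild-type 1 (-0.04) and Ube2j2 without wild-type 2 (-0.03). The signs of Sdf4, B3galt6, Mib2 and Ccnl2 held whichever single library was left out, though the log2 change of Ccnl2 was 0.05 without OX40-knockout 1.

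**Figure D5:**
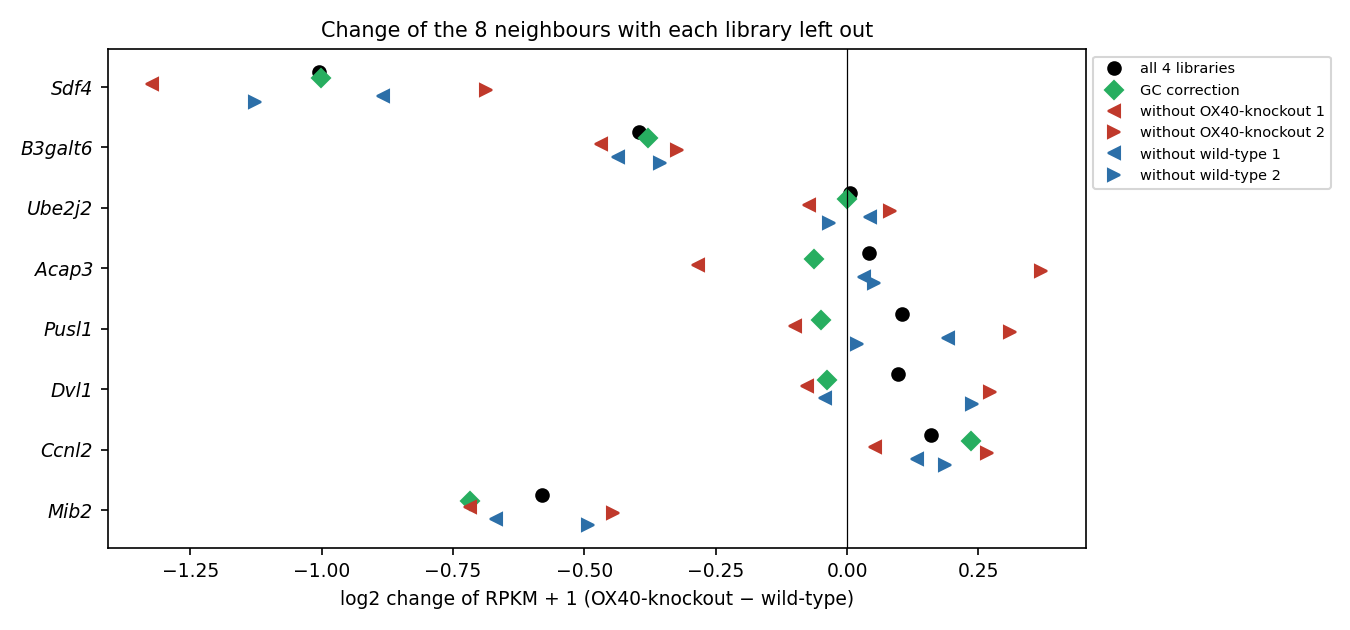
Log2 change of RPKM + 1 (OX40-knockout minus wild-type) for each of the 8 neighbours with all 4 libraries (black), after the GC correction (green) and with each library left out in turn (red for knockout, blue for wild-type libraries). All markers of Sdf4, B3galt6 and Mib2 lie left of 0, those of Ccnl2 right of 0, and those of the other 4 genes on both sides.

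Genes of the same roles were read from lists drawn up by gene function, whatever their place in the genome. Among them Cdk11b lies in the neighbourhood described above, 24 places from Tnfrsf4. Of 54 such genes 51 passed the level filter, 27 with a negative and 24 with a positive log2 change, and the median was -0.02. The negative share was 52.9%, beside 56.6% of all tested genes. 0 of the 51 passed the limma test, beside 0% of all tested genes, and 0 had an absolute log2 change of at least 0.5, beside 3.29%. The 4 calcium-binding proteins of the family of Sdf4 (Calu, Rcn1, Rcn2 and Rcn3) had log2 changes from -0.02 to 0.31, and their groups overlapped in each case. The 5 measured enzymes of the glycosaminoglycan linker other than B3galt6 ranged from -0.07 to 0.32, and the 7 measured Notch genes other than Mib2 from -0.18 to 0.36. Both knockout libraries were lower for 0 of the 5 linker enzymes and 2 of the 7 Notch genes. They were higher for 0 of the 5 linker enzymes and for 1 of the 7 Notch genes, Notch1. Over all 51 genes they were lower for 3 (5.88%) and higher for 3 (5.88%), beside 17.8% and 8.66% of all tested genes. All 7 measured pseudouridine synthases had negative log2 changes, from -0.33 to -0.07, but their groups overlapped in each case and their median deviation was -0.28 in OX40-knockout 1 and 0.12 in OX40-knockout 2. Of the remaining lists, endoplasmic reticulum ubiquitin enzymes ranged from -0.16 to 0.23, ARF GTPase-activating proteins from -0.06 to 0.12, Dishevelled and Wnt genes from -0.33 to 0.19 and L-type cyclins and partners from -0.31 to 0.15.

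The naming rule took 4 of these genes, each with overlapping groups or a difference carried by OX40-knockout 1. Dkc1, the pseudouridine synthase of small nucleolar ribonucleoproteins, was at 81.4 and 124 RPKM in knockout and 122 and 131 RPKM in wild-type libraries. Tcf7, a transcription factor downstream of Wnt signals, was at 10.1 and 17.1 RPKM in knockout and 14.5 and 19.6 RPKM in wild-type libraries. Srsf1, a splicing factor, was at 126 and 178 RPKM in knockout and 174 and 197 RPKM in wild-type libraries. Notch1, a Notch receptor, was at 220 and 137 RPKM in knockout libraries, against 135 and 135 RPKM in wild-type libraries.

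By Euclidean distance over the 4 deviations on the log2(RPKM + 1) scale, the tested gene nearest to Sdf4 was the T cell receptor segment Traj25, at a distance of 0.25. For the other 7 genes the nearest one lay between 0.016 and 0.054 away: Gm26848 for B3galt6, Smarcb1 for Ube2j2, H2-D1 for Acap3, Zc3hav1 for Pusl1, S1pr1 for Dvl1, Aldh16a1 for Ccnl2 and Gm10169 for Mib2. Tnfrsf4 was nearest to Trav16, at 0.042. With 4 libraries such likeness is loose, and some of these genes held few reads. Traj25 held 5 and 2 reads in knockout and 10 and 8 in wild-type libraries. Gm10169 held 8 and 6 reads in knockout and 13 and 17 in wild-type libraries.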

How the data were processed

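RNA was sequenced from sorted double-negative regulatory T cells in 4 libraries. Per the submitters' processing notes, the reads were processed with Bowtie 0.12.2 and build mm8. The sources used here name no annotation, counting tool or use of strand. The authors deposited 1 table of RPKM values whose header names no unit. The unit was settled from the values, since they step by whole reads at annotated transcript lengths. Library totals were recovered from those steps, and whole reads (within 0.01 read) for 20748 of the 20996 genes above 0 (98.8%). For each of the 8 genes the length behind the values lay within 1 base of the mean GENCODE vM21 transcript length. The sum of recovered reads was 101.2% to 101.3% of each total, so those of some genes are too high. GENCODE vM21 names 34490 of the IDs. It is of GRCm38, not mm8, and serves here for names, GC content, gene order and distances; no coordinates come from the deposited table.

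Knockout was compared with wild-type by limma 3.58.1 in R 4.3.3 (linear model on log2(RPKM + 1), empirical Bayes with trend, no block) over 11625 genes averaging 1 RPKM or more, with Benjamini-Hochberg adjustment and a threshold of 0.05. Fold changes are of RPKM + 1, which understates those of low genes. An exact permutation test of 2 against 2 libraries cannot pass the threshold and was not used. Intervals are exact 95% Poisson intervals of recovered reads. Genes named beyond the 8 were Tnfrsf4, the 3 lowest and 3 highest log2 changes at 5 RPKM or more among the 25 nearest protein-coding genes on each side, same-role genes at 5 RPKM or more with an absolute log2 change of at least 0.3, the 10 of lowest p at 5 RPKM or more, and the gene nearest in pattern; others were added to place these. The 8 genes, the lists and the settings were chosen with earlier results of these data known. In data simulated from these libraries with 200 genes changed 4-fold, limma recovered 200 and made 29 false calls (12.7%), and limma-voom 200 with 5 (2.44%). The simulated libraries had no GC trend and no shift by replicate number, which the real ones had. These counts therefore check the code and do not show what could be found in the real data. There Gm47283, at a log2 change of 3.00 (SE 0.40), did not pass (limma, adjusted p = 0.895). Tables were made with pandas 2.3.3 and numpy 2.4.6 under Python 3.11.15, and plots with matplotlib 3.10.9.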

Additional observations from a re-analysis of the deposited data

How the results depend on the processing

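14 alternatives were run, and in none did one of the 8 genes or Tnfrsf4 pass the threshold; B3galt6 could not be fitted with a filter at 5 RPKM, which leaves it out. Sdf4, B3galt6, Mib2 and Ccnl2 kept their sign in every setting run, with ranges of log2 change from -1.32 to -0.69, -0.52 to -0.20, -0.72 to -0.44 and 0.05 to 0.27. The GC correction turned Acap3 to -0.063, Pusl1 to -0.049 and Dvl1 to -0.038, with and without the replicate block; this setting removes a GC trend that is steepest in OX40-knockout 1. With 1 library left out, log2 changes ranged from -0.073 to 0.083 for Ube2j2, -0.28 to 0.37 for Acap3, -0.10 to 0.31 for Pusl1, -0.077 to 0.27 for Dvl1 and -0.72 to -0.20 for Tnfrsf4. The median over the 8 genes then lay between -0.19 and 0.17, and the number with groups that do not overlap between 4 and 8, since 1 library against 2 separates more easily. Over all tested genes 0 passed without these changes. 1 passed with quantile normalization, 5 with the replicate block, 1 with the replicate block and GC correction, and between 0 and 1 with a library left out, none of them among the 8. The replicate number is no documented pairing, although deviations of the same-numbered libraries from their group means correlated across genes (r = 0.47). With the replicate block Sdf4 had an adjusted p of 0.182 and Tnfrsf4 of 0.995 (limma). Without the block, in the main fit, both had an adjusted p of 0.975 (limma). The median of the neighbourhood was 0.03 for 10 and 0.02 for 50 genes on each side. Counts of 175 to 302 reads limit B3galt6, and 86 to 332 C1qtnf12; with 2 libraries a group, smaller differences cannot be told from spread.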
